A study of Mus musculus with 2 samples.

Results

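The TAM family was followed in single-cell RNA sequencing of microglia, the resident macrophages of the brain. The family here means the receptor tyrosine kinases Tyro3, Axl and Mertk, which give it its name, and their secreted ligands Gas6 and Pros1. These 5 genes were chosen by name, out of 31053 genes in the count matrices, and all 5 were found. Both libraries came from the hypothalamus of young wild-type mice, with several animals pooled. The mice had received plasma protein carrying a fluorescent dye 20 hours earlier, so both groups share that injection, and an uninjected group was not analysed here. A fluorescence sort split the microglia into plasma-negative cells, without the dye, and plasma-positive cells, which carried it, and each sort gave 1 library. The libraries were made with a droplet kit (Chromium Single Cell 3', v3.1), which tags every RNA molecule it captures with its own barcode, the UMI, so that molecules rather than reads are counted. With 1 library per group no test of the groups was possible, and every interval below is a 95% interval for counting error alone.

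TAM receptors bind apoptotic cells through their ligands. Gas6 and Pros1 (protein S) carry a domain that is carboxylated with the help of vitamin K and then holds phosphatidylserine, a lipid that dying cells turn to their surface, while the other end of the ligand engages the receptor. Mertk serves the routine engulfment of dying cells and synaptic material by microglia, whereas Axl is known to be low in resting microglia and to rise in inflamed tissue and under type I interferon. Once active, the receptors also dampen cytokine signalling.

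The kept cells numbered 9860 in the plasma-negative library, with 34534518 UMIs, and 10362 in the plasma-positive library, with 41984977 UMIs. Median depth was 3270.5 and 3753 UMIs per cell, and mitochondrial transcripts took a median of 1.08% and 1.27% of a cell's UMIs. At least 4 of 11 microglia markers were present in 9831 plasma-negative and 10329 plasma-positive cells. The 8 markers of border-associated macrophages summed to 3.94 and 7.03 CPM (UMIs of a gene per 1000000 UMIs counted), with 3 and 1 of them at 0, and 12 neuronal markers summed to 7.04 and 20.9 CPM. No cell type known to lack the members was present in number, so the shares of cells with a UMI have no free-RNA background beside them.

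Axl was the member that separated the sorts. It gave 114 UMIs in the plasma-negative library, a level of 3.30 CPM (2.72 to 3.97). The plasma-positive library gave 540 UMIs, a level of 12.9 CPM (11.8 to 14.0). These intervals are far apart, and the plasma-positive level was 3.90-fold higher (3.18 to 4.81). Of the 8355 genes that reached 10 CPM in either library, 29 (0.347%) differed at least 1.5-fold between the sorts. Higher in the plasma-positive library were 27 of these (0.323%) and lower 2 (0.0239%), and 19 (0.227%) were at least 2-fold higher. Of the members, Axl alone was among them, with rank 8 from the top by its ratio. It had passed the 10 CPM minimum through the plasma-positive library alone. The Axl protein is a receptor for Gas6, and its gene spans positions 25757273 to 25788705 of chromosome 7, minus strand, in GENCODE M21 on GRCm38.

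An Axl UMI was found in few cells of either library. With 114 and 540 Axl UMIs the number of such cells is limited by the level itself. The shares alone therefore do not show that Axl was restricted to few cells. In the plasma-negative library 99 cells held an Axl UMI, or 1.00% (0.817 to 1.22), against 399 cells, or 3.85% (3.49 to 4.24), in the plasma-positive library. When each cell was thinned to 1000 UMIs, the shares were 0.254% and 0.902%. Cells with several Axl molecules were also more frequent: 12 plasma-negative and 89 plasma-positive cells held at least 2, and these cells carried 23.7% and 42.6% of all Axl UMIs. The highest cell held 4 Axl UMIs in the plasma-negative and 7 in the plasma-positive library.

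Mertk, the receptor of routine clearance, was present in most cells of both sorts. Its 16731 plasma-negative UMIs made 484 CPM (477 to 492) and its 18615 plasma-positive UMIs made 443 CPM (437 to 450). The ratio was 0.92 (0.90 to 0.93), a log2 ratio of -0.13, which is below 1.5-fold, beside a median log2 ratio of -0.04 over the genes tested. A Mertk UMI was found in 69.6% and 71.7% of cells, and in 36.3% and 33.4% of cells at 1000 UMIs, so that the order of the shares turned once depth was equal. The gene spans positions 128698956 to 128802894 of chromosome 2, plus strand. The antisense gene Gm14011 overlaps it and gave 41 and 34 UMIs, and the use of strand in the counting is not given in the sources used here.

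Tyro3, the third receptor, gave 0 UMIs in both libraries. By the exact binomial (Clopper-Pearson) limit, a count of 0 allows a UMI in up to 0.0374% of the plasma-negative cells and up to 0.0356% of the plasma-positive ones. These limits concern captured molecules and not protein. Tyro3 therefore entered no further comparison.

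Both ligands were present in microglia at nearly equal levels in the 2 sorts. Pros1, which also circulates as an anticoagulant cofactor, gave 8687 UMIs in plasma-negative cells, or 252 CPM (246 to 257), and 10802 UMIs in plasma-positive cells, or 257 CPM (252 to 262). These intervals overlap, and the ratio was 1.02 (0.99 to 1.05). Gas6, the ligand with the broadest binding among the receptors, gave 4088 UMIs, 118 CPM (115 to 122), against 5382 UMIs, 128 CPM (125 to 132). Its ratio of 1.08 (1.04 to 1.13) is far below 1.5-fold. At 1000 UMIs per cell, a Pros1 UMI was found in 21.5% and 22.4% of cells, and a Gas6 UMI in 1020 of 9064 plasma-negative cells (11.3%) and 1173 of 9759 plasma-positive cells. Gas6 lies on chromosome 8 and Pros1 on chromosome 16. Gas6 overlaps Tmem255b on the other strand, which gave 0 UMIs in both libraries.

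Since the kit counts 1 end of each molecule, UMIs of the members can be set side by side without scaling by length, although capture may differ between genes. Mertk made up 56.5% of the members' 29620 UMIs in the plasma-negative library and 52.7% of 35339 in the plasma-positive library. Pros1 took 29.3% and 30.6%, Gas6 13.8% and 15.2%, and Axl 0.385% and 1.53%. Of the receptors, Mertk gave nearly all UMIs in both sorts.

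**Figure D1:**
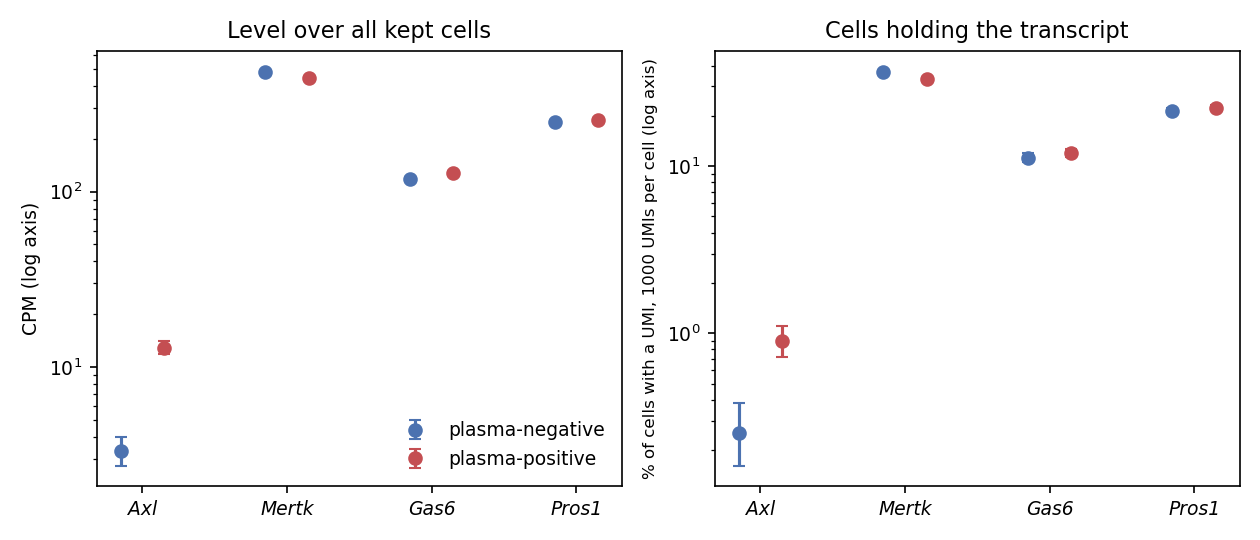
Level of each member in CPM (left, log axis) and percent of cells with a UMI after thinning to 1000 UMIs (right, log axis), 1 point per library, bars are 95% counting intervals. Axl stands at 3.30 CPM in the plasma-negative and 12.9 CPM in the plasma-positive library, while the 2 points of Mertk, Gas6 and Pros1 lie close together. Tyro3, at 0 in both libraries, is not drawn.

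The Axl difference was present at every depth. The cells of both libraries were cut together into 5 groups by UMIs per cell. The Axl level of plasma-negative cells ranged from 2.94 to 3.55 CPM over these groups, with no trend. Plasma-positive cells stood at 8.13 to 11.6 CPM in the 4 shallower groups and at 18.5 CPM in the deepest, which held 326 of the 540 Axl UMIs. The ratio was 3.52, 2.57, 2.77 and 2.53 from the shallowest group on, and 5.45 (3.82 to 8.01) in the deepest. Mertk gave ratios of 1.04, 0.92, 0.89, 0.88 and 0.88 over the same groups. Pros1 stayed between 0.97 and 1.10, and Gas6 between 1.01 and 1.12.

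Axl also moved with the mitochondrial share, in both libraries. From the lowest to the highest group by that share, Axl went from 1.88 to 5.97 CPM among the plasma-negative cells and from 5.60 to 24.6 CPM among the plasma-positive ones. Within each of the 5 groups the plasma-positive level was 2.93- to 4.12-fold higher. Mertk ratios were 0.87 to 0.95 in these groups.

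**Figure D2:**
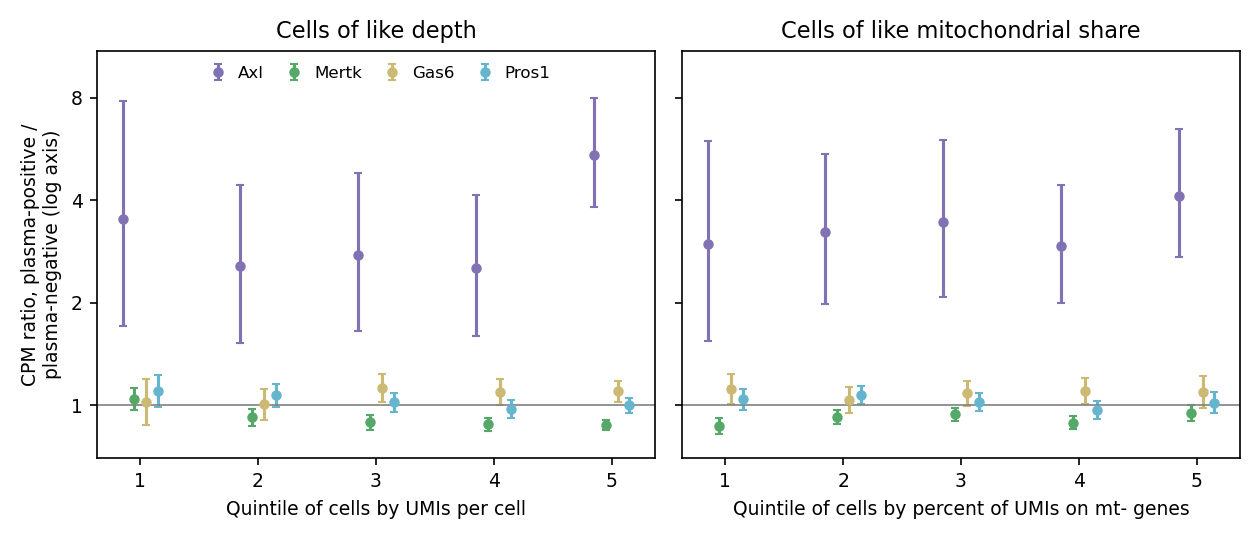
Ratio of CPM, plasma-positive over plasma-negative (log axis), for 4 members in 5 groups of cells cut by UMIs per cell (left) or by mitochondrial share (right), with 95% counting intervals. The Axl points lie between 2.53 and 5.45, above those of the other members in every group, which lie near 1.

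Promoters of both detected receptors are shown because Axl and Mertk differed in the company they kept, described below. The interferon-induced gene Ifit1 stands beside them as a reference for a promoter with interferon-stimulated response elements (ISRE). Each sequence runs from 250 bases before to 50 bases after the annotated start (RefSeq, GRCm38.p6), read 5′ to 3′ on the gene's strand. Capitals mark the ISRE core (GAAA, any 2 bases, GAAA) in Ifit1 and the Sp1 box GGGCGG in Axl and Mertk, on either strand. Axl is chr7:25788684-25788983 on the minus strand, Mertk chr2:128698665-128698964 on the plus strand, and Ifit1 chr19:34640639-34640938 on the plus strand.
Axl: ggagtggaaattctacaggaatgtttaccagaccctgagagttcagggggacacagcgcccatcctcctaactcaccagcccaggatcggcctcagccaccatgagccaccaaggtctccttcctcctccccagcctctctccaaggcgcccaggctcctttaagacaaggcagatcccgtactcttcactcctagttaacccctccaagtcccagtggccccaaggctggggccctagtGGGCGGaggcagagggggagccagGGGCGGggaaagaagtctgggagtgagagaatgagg
Mertk: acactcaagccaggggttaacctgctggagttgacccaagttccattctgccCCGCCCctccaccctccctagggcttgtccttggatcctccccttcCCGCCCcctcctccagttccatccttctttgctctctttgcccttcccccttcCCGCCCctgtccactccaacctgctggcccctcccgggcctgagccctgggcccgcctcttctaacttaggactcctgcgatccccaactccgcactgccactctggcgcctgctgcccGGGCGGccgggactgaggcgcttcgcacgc
Ifit1: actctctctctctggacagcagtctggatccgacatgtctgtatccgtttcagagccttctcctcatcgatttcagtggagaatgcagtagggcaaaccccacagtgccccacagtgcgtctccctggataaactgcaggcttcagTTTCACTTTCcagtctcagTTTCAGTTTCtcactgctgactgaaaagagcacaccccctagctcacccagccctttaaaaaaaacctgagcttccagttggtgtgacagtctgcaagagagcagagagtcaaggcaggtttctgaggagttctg
The Axl window held 2 Sp1 boxes and Mertk 4, and neither held the ISRE letters, of which Ifit1 had 2 copies. All 5 members had at least 1 Sp1 box, found in 35.7% of 32851 promoters of this length, and 0 of 5 had the ISRE letters, found in 3.44%. Of 20 interferon-induced genes listed, 14 were matched in the promoter table and 9 held the ISRE letters. A match is no evidence of binding, and its absence concerns these windows only.

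Cells that held Axl mostly held Mertk as well. In the plasma-negative library 66 cells held both receptors, 33 Axl alone, 6793 Mertk alone and 2968 neither. In the plasma-positive library the numbers were 298, 101, 7132 and 2831. Among plasma-negative cells, Mertk was thus found in 66.7% (56.5 to 75.8) of those with Axl and in 69.6% of those without. For plasma-positive cells the shares were 74.7% (70.1 to 78.9) and 71.6%. Cells with Axl were deeper, with medians of 3973 against 3264 UMIs and 5081 against 3721 UMIs. Cells without Axl, weighted to the same depth groups, held Mertk in 77.5% and 80.1% of cases, above the cells with Axl in both libraries. In plasma-negative cells the shortfall was within the interval in 4 of 5 depth groups, and in plasma-positive cells the deepest group showed it most, with 82.2% (76.3 to 87.1) against 89.8% (88.5 to 91.0).

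**Figure D3:**
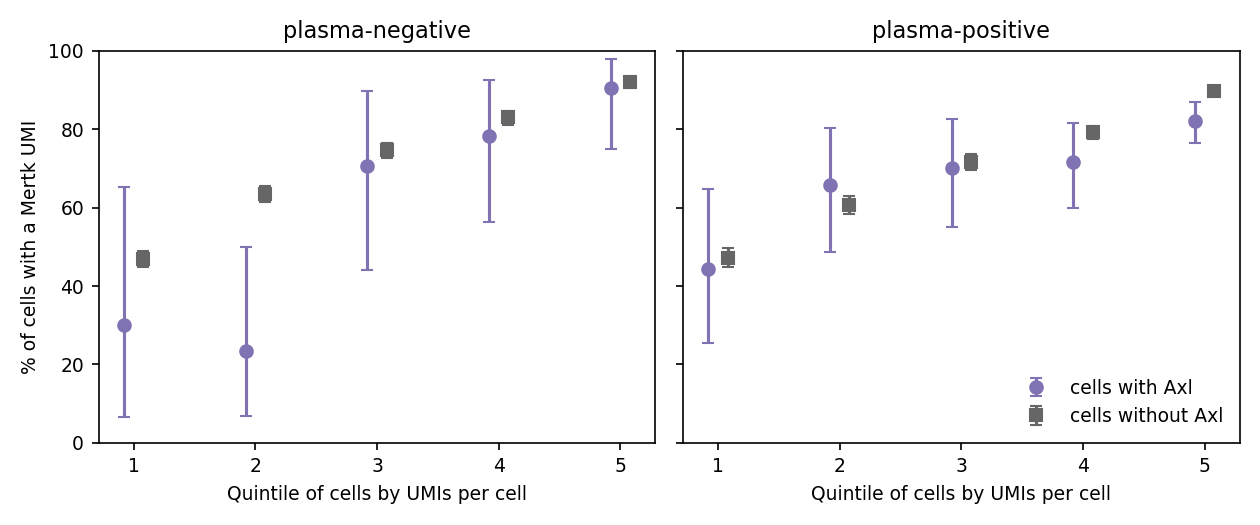
Percent of cells with a Mertk UMI among cells with Axl (circles) and without Axl (squares), by group of UMIs per cell, in each library, with exact 95% intervals. Mertk is found more often as depth grows in both kinds of cell, from 47.0% to 92.1% of plasma-negative cells without Axl, and the circles lie at or below the squares in 9 of 10 pairs.

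The Mertk level was lower as well. At matched depth, cells with Axl had a Mertk CPM 0.83 times (0.72 to 0.95) that of cells without it in the plasma-negative library and 0.80 times (0.75 to 0.86) in the plasma-positive library. The ligands differed less evenly. Gas6 stood at 0.63 times in plasma-negative and 0.96 times in plasma-positive cells with Axl, and Pros1 at 0.82 and 0.90 times. After thinning to 1000 UMIs, a definition of holders added after seeing the data, only 23 plasma-negative and 88 plasma-positive cells still held Axl, and the Mertk ratio, over all UMIs of those cells, was 1.01 (0.71 to 1.39) and 0.82 (0.69 to 0.97). The plasma-negative shortfall therefore was not seen at that setting. At 2000 UMIs, Mertk was found in 35.9% (21.2 to 52.8) of 39 plasma-negative cells with Axl against 56.1% of those without, and in 48.4% (40.4 to 56.5) of 157 plasma-positive ones against 53.7%.

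The Axl level was higher in cells rich in Apoe, which encodes a lipid carrier and is a leading gene of microglia around lesions. Cells were classed by their Apoe UMIs after thinning to 1000 UMIs, and member levels were taken over all UMIs of each class. In plasma-negative cells Axl stood at 2.19 CPM in 8350 cells with no Apoe UMI, at 11.4 CPM in 556 cells with 1 or 2, and at 31.4 CPM in 158 cells with 3 or more. In plasma-positive cells it stood at 6.15 CPM in 7957 cells, 16.2 CPM in 1161 cells and 76.9 CPM in 641 cells. By number, most plasma-negative Axl UMIs lay in cells with no Apoe UMI, 68 against 26 and 18 in the higher classes. In the plasma-positive library the numbers were 205, 81 and 246. From the lowest to the highest class Axl was 14.4-fold higher (8.04 to 24.4) in the plasma-negative and 12.5-fold higher (10.3 to 15.1) in the plasma-positive library. Mertk went the other way, at 0.81 (0.71 to 0.93) and 0.77 (0.72 to 0.82) times its level in the lowest class. Pros1 stood at 0.99 and 0.82 times, and Gas6 at 0.72 and 0.92 times.

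Transcripts of 20 interferon-induced genes gave a like division. Axl stood at 2.68, 4.68 and 15.7 CPM in plasma-negative cells with 0, 1 or 2, and 3 or more of these UMIs per 1000, the last from 8 Axl UMIs in 131 cells. In plasma-positive cells it stood at 7.31, 17.1 and 63.1 CPM, the last over 510 cells. The highest class exceeded the lowest 5.88-fold (2.44 to 12.2) and 8.64-fold (6.94 to 10.7). Mertk was again lower in the highest class, at 0.82 (0.71 to 0.95) and 0.77 (0.71 to 0.82) times. Pros1 stood at 1.05 (0.88 to 1.25) times in plasma-negative cells and, much like Mertk, at 0.78 (0.71 to 0.86) times in plasma-positive cells. Gas6 stood at 0.81 (0.60 to 1.08) and 1.04 (0.92 to 1.17) times.

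Among cells split by the presence of both features, Axl was highest where both were found. Plasma-positive cells with no Apoe and no interferon-induced UMI held Axl at 4.35 CPM, those with Apoe alone at 21.9, those with interferon-induced UMIs alone at 10.8, and those with both at 66.8 CPM. In the plasma-negative library the levels were 1.87, 12.1, 3.29 and 24.0 CPM in the same order. The difference between the sorts was present within these classes: Axl was 2.33-fold higher (1.63 to 3.39) in plasma-positive cells among cells with neither feature, and 2.78-fold higher (1.74 to 4.70) among cells with both. In cells with 1 or 2 Apoe UMIs the ratio was 1.43 (0.91 to 2.31). The plasma-positive library also had larger shares of cells in the upper classes, 6.57% against 1.74% with 3 or more Apoe UMIs and 5.23% against 1.45% with 3 or more interferon-induced UMIs. Mertk ratios between the sorts lay from 0.80 to 1.01 over all of these classes.

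**Figure D4:**
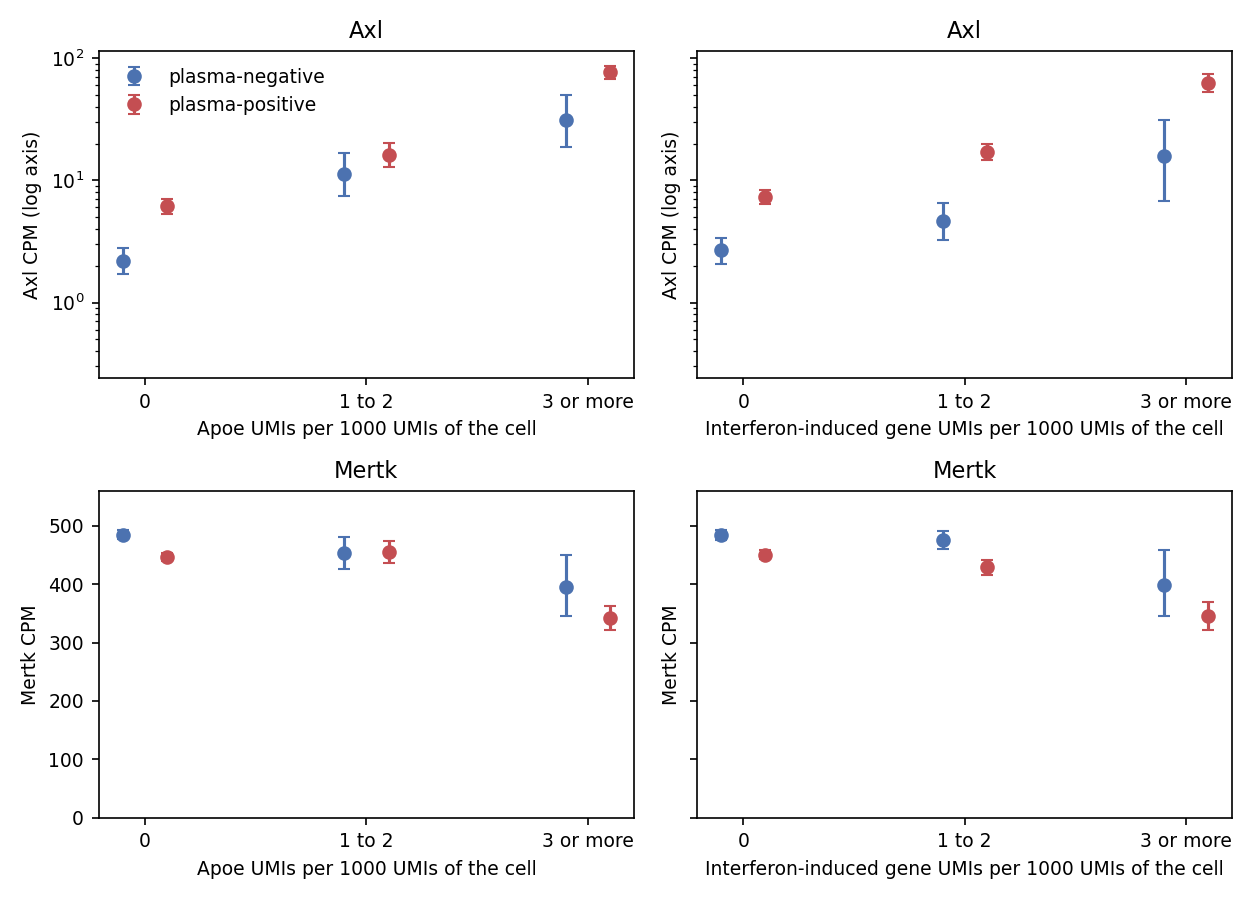
Axl CPM (top, log axis) and Mertk CPM (bottom) in cells classed by Apoe UMIs (left) or interferon-induced gene UMIs (right) per 1000 UMIs, 1 point per library and class, with 95% counting intervals. Axl is higher in each higher class in both libraries, up to 76.9 CPM, while Mertk is lowest in the highest class, down to 342 CPM.

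The genes whose pattern was most like Axl were ranked by the ratio of their CPM between cells with and without Axl at matched depth, taking the lower of both libraries' interval bounds, over 3357 genes with at least 50 CPM in both. The values that ranked them are given as a description. Apoe came first, 8.47-fold higher in plasma-negative and 8.46-fold higher in plasma-positive cells with Axl. The chemokine gene Ccl12 followed at 3.89 and 4.35. Then came Cd52, a surface glycoprotein gene, at 2.09 and 2.11, Cd63, a tetraspanin of late endosomes, at 1.71 and 1.88, and the MHC class I gene H2-D1 at 1.67 and 2.55. Tspo, Mif, Slfn2, Lyz2 and Fth1 completed the first 10. At the other end stood the fructose transporter gene Slc2a5 at 0.63 and 0.60, Lrba at 0.61 and 0.63, Ltc4s at 0.74 and 0.77, and the purinergic receptor genes P2ry12 at 0.80 and 0.64 and P2ry13 at 0.75 and 0.69. In all, 12 genes (0.357%) were at least 1.5-fold higher and 5 (0.149%) at least 1.5-fold lower in both libraries. With holders defined after thinning to 1000 UMIs, Apoe stood at 14.9 and 7.35 and Ccl12 at 8.76 and 3.56. Cd52, Cd63 and H2-D1 were also past 1.5-fold in both libraries at that setting. The other 5 of the first 10 were not, with Mif at 1.06 (0.46 to 2.09) and 1.22 (0.89 to 1.62). Of the lowest genes, Slc2a5, Lrba and P2ry13 had plasma-negative intervals that reached past 1, at 0.77 (0.45 to 1.21), 0.53 (0.21 to 1.09) and 0.93 (0.69 to 1.24). In plasma-positive cells they stood at 0.53, 0.70 and 0.61. Ltc4s stood at 0.59 and 0.76 and P2ry12 at 0.83 and 0.54.

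Listed interferon-induced genes stood out in the cells with Axl. Of 13 with at least 10 CPM, 12 were at least 1.5-fold higher in both libraries, beside 62 of 8354 genes (0.742%) at that minimum. Their median ratio was 4.78 in plasma-negative and 6.54 in plasma-positive cells, beside 0.96 and 0.91 over all genes. Ifitm3, a membrane restriction factor, stood at 7.71 (5.54 to 10.5) and 9.05 (8.26 to 9.92). The chemokine gene Cxcl10 stood at 4.78 (2.87 to 7.54) and 11.5 (9.69 to 13.6). The exception was Xaf1, at 1.34 and 2.01. With holders defined after thinning, the median was 6.21 in plasma-positive cells, with 13 of 13 genes past 1.5-fold beside 4.48% of all genes, and 1.98 in plasma-negative cells. There 7 of 13 genes were at least 1.5-fold higher, beside 16.3% of all genes, and 5 at least 1.5-fold lower, beside 30.4%, and the 23 holders gave 0 to 3 UMIs for each gene but Bst2.

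Disease-associated and homeostatic genes were compared in the same cells. Of 14 disease-associated microglia genes other than Axl, 5 were at least 1.5-fold higher in both libraries, beside 0.742% of all genes. These were Apoe, Cd63, Lyz2, the lipase gene Lpl at 7.21 and 2.85, and the growth factor gene Csf1 at 2.29 and 2.12. Trem2, a lipid receptor of the same programme, stood at 0.97 and 1.01. Of 16 homeostatic genes, Slc2a5 alone was at least 1.5-fold lower in both, beside 77 of 8354 genes (0.922%) at 10 CPM. All 16 were below 1, with medians of 0.86 and 0.80, but so were 56.4% and 71.0% of all genes, with medians of 0.96 and 0.91. The fractalkine receptor gene Cx3cr1 stood at 0.89 and 0.82. Of 10 genes of TAM feedback on cytokine signalling, Stat2 alone passed 1.5-fold in both, at 1.76 and 1.93. With holders defined after thinning, 3 of the 14 disease-associated genes were past 1.5-fold in both libraries, beside 1.2% of all genes. Lpl then stood at 3.45 (1.58 to 6.58) in plasma-negative cells, from 9 UMIs, and at 2.77 in plasma-positive cells. Csf1 rested on 2 and 3 UMIs and stood at 0.61 (0.13 to 1.80) in the plasma-positive library, and Stat2 stood at 0.85 in the plasma-negative library, from 1 UMI.

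Cells with a UMI of neither receptor, or of Mertk alone, held far less Apoe. In the plasma-positive library Apoe stood at 12384 CPM in cells with Axl alone, 6304 with both receptors, 693 with Mertk alone and 1273 with neither. The interferon-induced list summed to 4334, 2073, 483 and 724 CPM in the same order. In the plasma-negative library Apoe stood at 1919, 1212, 144 and 187 CPM and the list at 856, 946, 315 and 384 CPM. The cells with Axl alone were shallower than those with both, at medians of 4230 against 5204 UMIs in the plasma-positive and 2999 against 4496.5 UMIs in the plasma-negative library.

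Mertk gave a flatter and partly opposite picture. Over 3356 genes at 50 CPM, 0 were at least 1.5-fold higher and 1 (0.0298%) at least 1.5-fold lower in cells with Mertk in both libraries at matched depth. The highest ranked genes were Elmo1, an engulfment adaptor gene, at 1.27 and 1.27, Dennd4a at 1.29 and 1.37 and Baz1b, a chromatin remodelling gene, at 1.36 and 1.37. Gm15655, Kcnq1ot1, Nav3, Sall3, Dst, Slco2b1 and Gm26778 followed. The lowest were Ccl12 at 0.60 and 0.60, Cd52 at 0.72 and 0.71, Apoe at 0.72 and 0.41, Mif at 0.70 and 0.73, and Fth1 at 0.79 and 0.78. Ccl12, Cd52, Apoe, Mif and Fth1 were also among the first 10 for Axl. The interferon-induced list had 8 of 13 genes at least 1.5-fold lower in both libraries, beside 16 of 8354 (0.192%) lower and 3 (0.0359%) higher at 10 CPM, with medians of 0.60 and 0.41.

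The size of the Mertk pattern depended on how depth was handled. Few deep cells lacked Mertk, 115 of the plasma-negative and 280 of the plasma-positive cells in the deepest group, and matching gives these cells much weight. With holders defined after thinning to 1000 UMIs, the medians of the interferon-induced list were 0.80 and 0.70, with 12 and 13 of 13 genes below 1, beside medians of 1.03 in both libraries and 36.7% of genes below 1 over all genes. In place of 8 of the 13 genes, 3 were then at least 1.5-fold lower in both libraries, beside 4 of 8354 genes. Apoe then stood at 0.98 (0.93 to 1.04) in the plasma-negative library and at 0.58 (0.57 to 0.59) in the plasma-positive one, Ccl12 at 0.73 and 0.75, and Elmo1 at 1.14 and 1.19. Axl itself stood at 1.16 (0.78 to 1.72) and 0.73 (0.60 to 0.89) in cells with Mertk at that setting, against 0.61 (0.41 to 0.92) and 0.48 (0.39 to 0.59) at matched depth.

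**Figure D5:**
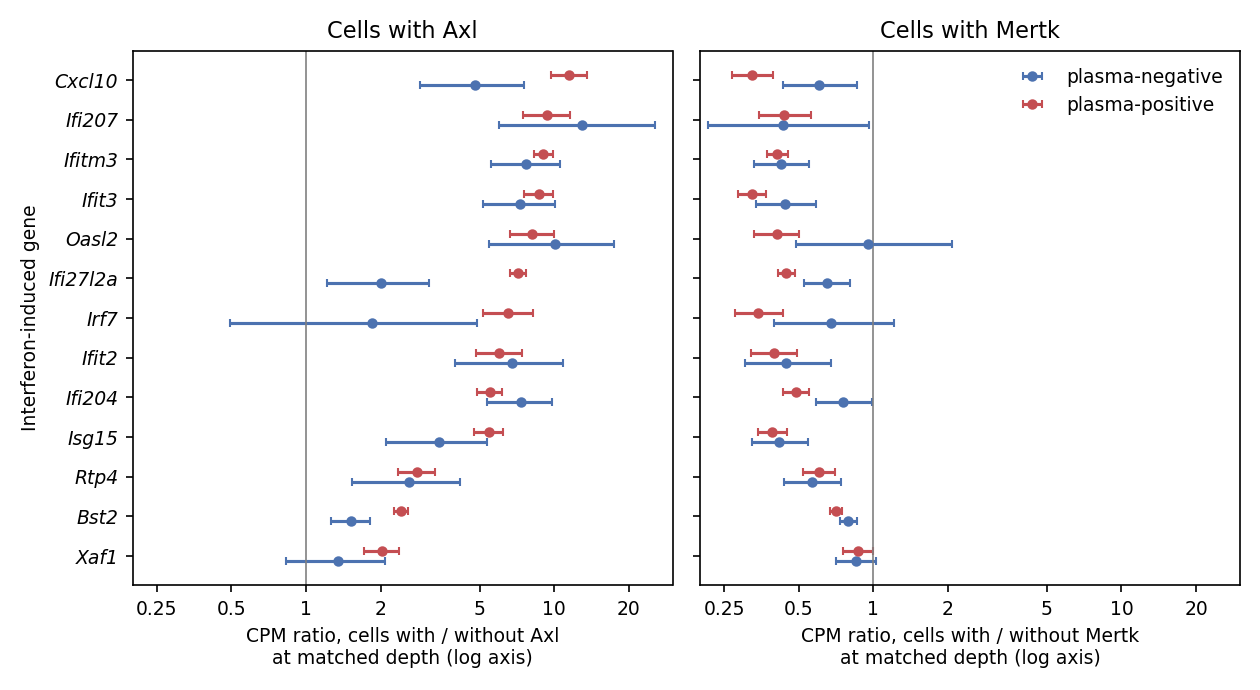
Ratio of CPM between cells with and without Axl (left) or Mertk (right) at matched depth, for 13 interferon-induced genes (log axis), 1 point per library, with 95% counting intervals. All points for Axl lie above 1 and all points for Mertk lie below 1, although the intervals of Irf7 and Xaf1 for Axl, and of Oasl2, Irf7 and Xaf1 for Mertk, reach 1 in the plasma-negative library, as does that of Xaf1 for Mertk in the plasma-positive library.

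The ligands split the cells less sharply among genes of at least 50 CPM. Between cells with and without Pros1, the gene furthest up in both libraries was Wdfy3 at 1.14 and the gene furthest down Apoe at 0.89, each the weaker of its 2 values. For Gas6 they were Naaa, a lysosomal amidase gene, at 1.17 and Apoe at 0.85. In neither split did any of 3356 genes reach 1.5-fold in both libraries, 0% in each direction. The interferon-induced list had a median of 1.11 in plasma-negative and 0.54 in plasma-positive cells with Pros1, but 0.97 and 0.87 after thinning. At that setting 7 and 13 of 13 genes were below 1, beside 46.9% and 48.4% of all genes. Cxcl10 then stood at 0.74 (0.54 to 0.997) and 0.48 (0.37 to 0.61) in cells with Pros1. For Gas6 the list had medians of 0.93 and 0.89 at matched depth and 0.88 and 0.82 after thinning, where 12 of 13 genes were below 1 in each library, beside 51.3% and 49.0% of all genes. Cxcl10 depended on the setting: it stood at 4.18 (3.20 to 5.51) and 0.82 (0.70 to 0.97) in cells with Gas6 at matched depth, but at 0.16 (0.06 to 0.35) and 0.31 (0.20 to 0.46) after thinning. Rsad2, below 10 CPM, stood at 0.35 (0.09 to 0.94) and 0.40 (0.21 to 0.72) after thinning, from 4 and 12 UMIs.

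In the rest of the pathway 0 listed genes passed 1.5-fold between the sorts. Over all genes tested only 0.347% did, so a count of 0 in short lists is near that background and says nothing particular to the pathway. Of the enzymes that carboxylate the ligands, 2 of 5 could be compared and 0 passed 1.5-fold, with Vkorc1, which recycles vitamin K, at 109 and 113 CPM. The carboxylase gene Ggcx stayed below the minimum, at 9.47 and 9.43 CPM. Of the proteases that shed TAM receptors from the surface and their regulators, 2 of 5 were compared and 0 passed, with Adam10 at 245 and 261 CPM and Adam17 at 145 and 150 CPM. Among 20 other phosphatidylserine receptors and bridges, 10 were compared and 0 passed, with Trem2 at 2605 and 2475 CPM and the integrin gene Itgb5 at 775 and 849 CPM. Of 8 genes that expose phosphatidylserine, 4 were compared, with Tmem30a at 207 and 208 CPM, and of 21 engulfment genes 17, with Elmo1 at 559 and 514 CPM and the GTPase gene Rac1 at 317 and 329 CPM. Of 10 nuclear receptor genes and targets, which link engulfment to cholesterol export, 8 were compared, with Mylip at 326 and 301 CPM and Abca1 at 215 and 228 CPM. In all of these lists 0 genes passed 1.5-fold in either direction, and their median log2 ratios lay from -0.05 to 0.07.

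Genes of the cytokine signalling that TAM receptors are known to restrain stayed below 1.5-fold, whereas most interferon-induced genes did not. Of 13 feedback genes 10 were compared and 0 passed, with the interferon receptor gene Ifnar2 at 316 and 311 CPM and the kinase gene Jak1 at 216 and 211 CPM. Of 20 interferon-induced genes 13 were compared, and 11 were at least 1.5-fold higher in the plasma-positive library, beside 0.323% of all genes, with a median log2 ratio of 1.31. Ifit2, Oasl2, Irf7, Ifi207 and Cxcl10 reached the 10 CPM minimum through the plasma-positive library alone. Their place among the 11, and the median, thus depend in part on that minimum. Ifitm3 stood at 13.1 and 58.1 CPM, Ifi27l2a at 19.5 and 90.9 CPM, and Isg15 at 12.5 and 31.0 CPM. The 2 others were Bst2 and Xaf1, with log2 ratios of 0.32 and 0.34. Of 14 disease-associated genes Apoe alone passed, at 171 and 1189.9 CPM, and of 16 homeostatic genes 0 did, with a median of -0.06.

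Other ligands reported for Mertk were scarce. Galectin-3 (Lgals3) gave 144 and 254 UMIs, 4.17 and 6.05 CPM, Tub 3 and 6 UMIs and Tulp1 0 UMIs in both libraries. Lgals3 was found in 32 of the 399 plasma-positive cells with Axl, or 8.02%, against 0.743% of those without. These shares were not matched for depth, and cells with Axl were deeper. By level, Lgals3 stood at 34.5 CPM in these cells with Axl and at 4.36 CPM in those without. In the plasma-negative library 3 of 99 cells with Axl held 56 of the 144 Lgals3 UMIs, and 1 cell held 38.

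The cells with Axl carried the microglia markers. Of the plasma-negative cells with Axl, 99 of 99 held at least 4 of the 11, as did 398 of 399 such plasma-positive cells. Nearly all cells without Axl did so too, 9732 of 9761 and 9931 of 9963, so this count does not set the cells with Axl apart. The 11 markers summed lower in cells with Axl, to 27454.5 against 30614.2 CPM in the plasma-negative library. In the plasma-positive library they summed to 24267.6 against 29382.4 CPM. Markers of border-associated macrophages, which can also express Axl, summed to 15.9 CPM in plasma-negative cells with Axl, against 3.76 CPM without, and to 29.0 against 5.73 CPM in the plasma-positive library. In the plasma-negative cells with Axl 7 of the 8 markers were at 0, and in the plasma-positive cells 1. At least 4 of these markers were present in 0 cells with Axl in either library, and in 2 plasma-positive cells without Axl. At least 3 were present in 4 cells of the plasma-positive library, and 2 of these 4 held Axl. In the plasma-negative library 0 cells held at least 3. The 12 neuronal markers summed to 3.97 CPM in plasma-negative cells with Axl, from 2 UMIs, against 7.08 CPM without, too few to show a difference. In the plasma-positive library they summed to 5.96 CPM with Axl, from 14 UMIs, against 21.8 CPM without. Of the latter, Avp and Oxt gave 311 and 274 UMIs, held by 38 and 23 cells. The part of macrophages, or of single macrophage transcripts, in the Axl values was not tested further.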

How the data were processed

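The authors deposited raw UMI counts per gene and cell, as 1 matrix per library. Cell Ranger 6.1.2 is named by the matrix, per the file headers, whereas Cell Ranger 3.0.1 is named per the submitters' processing notes. The genome build, annotation, strand setting and treatment of shared reads are not given in the sources used here. Cell barcodes were not analysed here, so barcodes shared between libraries were not counted.

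Cells with at least 500 UMIs, 300 genes and at most 10% of UMIs on mt- genes were kept, leaving 9860 of 9878 cells in the plasma-negative and 10362 of 10390 in the plasma-positive library. Doublets were not removed. Scrublet (scanpy 1.11.5) called 1258 plasma-negative and 0 plasma-positive cells and so had not worked in the second library. Counts were summed per library or class of cells and divided by the total (CPM). No pseudocount was used. Sums carry exact Poisson, shares Clopper-Pearson and ratios exact conditional binomial 95% intervals (scipy 1.17.1), for counting error only. At matched depth, cells without a gene were weighted to the UMIs of cells with it in 5 depth groups, and the interval used the effective count of the weighted sum. Thinning drew UMIs without replacement and dropped shallower cells. The ratio between libraries and the matched-depth ratio were tested on simulated data. There the holders were drawn by depth and not by the UMIs of a gene, so the definition of holders was not tested. Thinning was checked only for the UMIs left per cell.

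With 1 library per group no p-value was computed, and a gene was listed at 1.5-fold where either library reached 10 CPM. Named were all members, listed genes past 1.5-fold or else the 2 most abundant of a list, and the 10 highest and 5 lowest genes beside Axl and Mertk. Stat2, Bst2, Xaf1, Ggcx, Cx3cr1, Trem2 in cells with Axl, and Lpl and Csf1 in those cells fall outside this rule. So do Cxcl10 beside Pros1 and Gas6, Rsad2 beside Gas6, Lgals3, Tub and Tulp1. All of these were picked with their values in view. The members and lists were chosen with earlier results of these data known. Clec7a was not analysed here. Other depths, filters, scalings and doublet removal were tried as alternatives.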

Additional observations from a re-analysis of the deposited data

How the results depend on the processing

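No paired analysis was possible because neither sort had a second library, so none could be left out either. Of 272 values recomputed under 15 settings, 229 kept within the main interval or within 1.5 times the main count. The log2 ratio of Axl ranged from 1.73 to 2.06, of Gas6 from 0.10 to 0.16, of Mertk from -0.16 to -0.09 and of Pros1 from 0.02 to 0.09. Mertk moved to -0.089 under TMM scaling and to -0.087 with median-of-ratios size factors, each of which adds about 0.04 to every log2 ratio, and each left 1 gene at least 1.5-fold lower in place of 2. Thinning to 1000 UMIs gave 0.092 for Pros1 and 19 genes lower. The minimum of 50 CPM gave 5 genes higher and 0 lower, and that of 1 CPM gave 241 and 109, as fewer or more low genes entered. The median of the TAM receptors, 0.92 over Axl and Mertk, became -0.12 at 2000 UMIs and -0.13 at 50 CPM, where Mertk alone was left. With holders defined after thinning, added after seeing the data, the interferon-induced median in plasma-negative cells with Pros1 turned from 1.11 to 0.97. The cause was not tested. Depth limits Axl, since single molecules make up most of its plasma-negative signal, and Tyro3, which gave 0 UMIs.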

Other observations

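4 further genes were looked at in cells with Axl after their values were seen. The shares of cells below were not matched for depth, and cells with Axl were deeper. C4b, a complement component gene, was found in 80 of 399 plasma-positive cells with Axl, or 20.1% (16.2 to 24.3), against 2.93% of those without. Its level there was 88.6 against 13.3 CPM. In the plasma-negative library it was found in 0 of 99 cells with Axl, which allows up to 3.66%, and in 0.471% of the others. Mrc1, the mannose receptor gene and a marker of border-associated macrophages, was found in 4.04% against 0.809% of plasma-negative cells and in 5.01% against 1.13% of plasma-positive cells. Its levels were 15.9 against 2.73 CPM and 14.1 against 3.83 CPM. Avp, a neuronal peptide gene, was found in 0 of 99 and 1 of 399 cells with Axl, and in 11 of 9761 and 38 of 9963 without. Oxt, another neuronal peptide gene, was found in 0 of 99 and 0 of 399 cells with Axl, and in 1 and 23 of those without.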
